A study of Mus musculus with 4 samples.

Results

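The T cell receptor complex and its proximal signalling machinery were described through 35 genes, of 10512 genes tested on the arrays. The genes were taken as a named list in 5 layers, namely the receptor with its coreceptor and costimulatory partners, the kinases, the adaptors and effectors, the arm that leads to NF-kB and NFAT, and the negative regulators. Of the 35 genes, 34 were measured, all 34 passed the filter on low signal in the mean of all 4 arrays, and Lck is not analysed here. The samples were CD4+ T cells from mouse spleen and from peripheral and mesenteric lymph nodes, labelled naive at the start and cultured for 7 days. The progesterone cultures received hTGFb1 at 1 ng/ml and progesterone at 2000 ng/ml (2 arrays), and the other cultures received hTGFb1 at 1 ng/ml alone (2 arrays). All 4 cultures also held serum and concanavalin A at 2.5 ug/ml, a plant lectin that cross-links surface glycoproteins and activates T cells, so no unstimulated culture and no culture without TGFb1 was compared. The comparison asks what progesterone, a steroid hormone, does to expression in T cells already exposed to TGFb1, a cytokine that restrains T cell activation and promotes regulatory T cells.

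The T cell receptor recognises peptide on an MHC molecule but has no signalling domain of its own, and the CD3 chains and the zeta chain (Cd247) carry the tyrosine motifs that do this work. When the receptor is engaged, Src family kinases phosphorylate those motifs, ZAP-70 docks on them, and ZAP-70 phosphorylates the scaffold LAT. Adaptors gathered on LAT bring in phospholipase C, Ras activators and actin regulators, and the signal passes to NFAT through calcium and to NF-kB through protein kinase C theta and the Bcl10-Malt1 complex, while phosphatases and ubiquitin ligases set its limit.

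The labelled cell type was checked on its defining genes, and Cd3d, Cd3e, Cd3g and Cd4 were bright on every array. The sums of Cd8a and Cd8b1 signals were 166 and 91.2 with progesterone and 149 and 174 with TGFb1 alone. The arrays differed in ways that moved with the groups. Of 14 cell cycle genes listed, 13 were measured and all 13 lay lower with progesterone, with a median log2 difference of -2.64 and summed deposited signals of 5653 and 3241, against 26313 and 16304 with TGFb1 alone. The X-linked transcript Xist had deposited signals of 1390 and 825 with progesterone and 9.52 and 9.70 with TGFb1 alone, and the Y-linked gene Eif2s3y had 4.25 and 0.49 with progesterone and 689 and 727 with TGFb1 alone, so the groups differ in sex-linked transcripts and this difference cannot be told apart from the treatment. Summed myeloid marker signals, with 9 of 10 measured genes above the level filter, were 1141 and 1034 with progesterone and 582 and 326 with TGFb1 alone. Lyz2 made up much of this, at 676 and 588 with progesterone and 189 and 53.5 with TGFb1 alone. By log2 difference, 9 of the 10 markers lay above 0, with a median of 0.54, and Itgam lay at -0.81. Summed dendritic cell marker signals, with 3 of 7 above the filter, were 788 and 622 with progesterone and 467 and 510 with TGFb1 alone. Within that sum, Cd74 had 314 and 254 with progesterone and 79.7 and 59.4 with TGFb1 alone. H2-Ab1 overlapped, at 359 and 277 with progesterone and 329 and 363 with TGFb1 alone, and 2 of the 7 markers had a log2 difference below 0. Summed B cell marker signals, with 5 of 7 above the filter and most of the signal from Ighm, were 1992 and 1477 with progesterone and 3949 and 4195 with TGFb1 alone, and Ms4a1 and Pax5, which define B cells, were below the filter. Most other B cell markers did not follow Ighm, since 5 of the 7, all dim, had a log2 difference above 0 and the median was 0.42. Pax5 lay below 0, at -0.26. Summed NK cell marker signals, with 2 of 5 above the filter, were 440 and 362 with progesterone and 748 and 809 with TGFb1 alone. Those 2 made up most of the sum. Klrd1 had 274 and 204 with progesterone and 514 and 445 with TGFb1 alone, and Eomes had 128 and 126 against 204 and 340. The other 3 were dim, with Ncr1 at a log2 difference of 0.44 and the remaining 2 below 0. Summed mast cell and basophil marker signals overlapped, at 1328 and 1326 with progesterone and 1801 and 1129 with TGFb1 alone. That overlapping sum was carried by Cpa3 (log2 difference -0.33), while 5 of the 6 mast cell and basophil markers lay above 0, with a median of 0.55 and Kit at 1.09 (adjusted p = 0.00924 in a fit of all probe sets). The part of these differences in the results that follow was not tested, and in a bulk sample fewer cells of a type and less RNA per cell cannot be told apart.

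After quantile normalisation, most of the receptor machinery differed little between the cultures. In the limma fit, 1 of 34 genes fell with progesterone (2.94%), the adaptor Trat1, and 0 rose. Over all genes tested, 5.25% fell and 3.05% rose at the same threshold, an adjusted p of 0.05. At an unadjusted p under 0.05, 10 of the 34 genes lay lower (29.4%, beside 12.3% of all genes) and 3 higher (8.82%, beside 11.7% of all genes). Leaving out TGFb1 replicate 1 left 3 genes that fell, leaving out TGFb1 replicate 2 left 2 that fell and 1 that rose, and leaving out progesterone replicate 2 left 0. The median log2 difference of the 34 genes, TGFb1 plus progesterone minus TGFb1 alone, was -0.03, beside 0.02 for all genes. For 28 of 34 genes (82.4%) the whole 95% interval of the difference lay within 1.5-fold, beside 48.6% of all genes. The SE is that of limma, which draws each gene's variance toward the trend over all genes. Its median was 0.10 on the log2 scale for the 34 genes and 0.16 for all genes. The values of the progesterone arrays lay wholly below those of the TGFb1 arrays for 13 genes (38.2%, beside 26.1% of all genes) and wholly above for 11 (32.4%, beside 29.8% of all genes), and for 10 genes the groups overlapped. These counts are of quantile normalised signals. In the signals as deposited, where the progesterone arrays were dimmer as a whole, 27 of 34 genes lay wholly lower with progesterone (79.4%, beside 45.0% of all genes), 0 lay wholly higher and 7 overlapped. The 2 arrays of a group may or may not be separate cultures, and with 3 ways to split 4 arrays in pairs an exact permutation share cannot fall below 0.333, so only the model across all genes was used as a test.

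**Figure D1:**
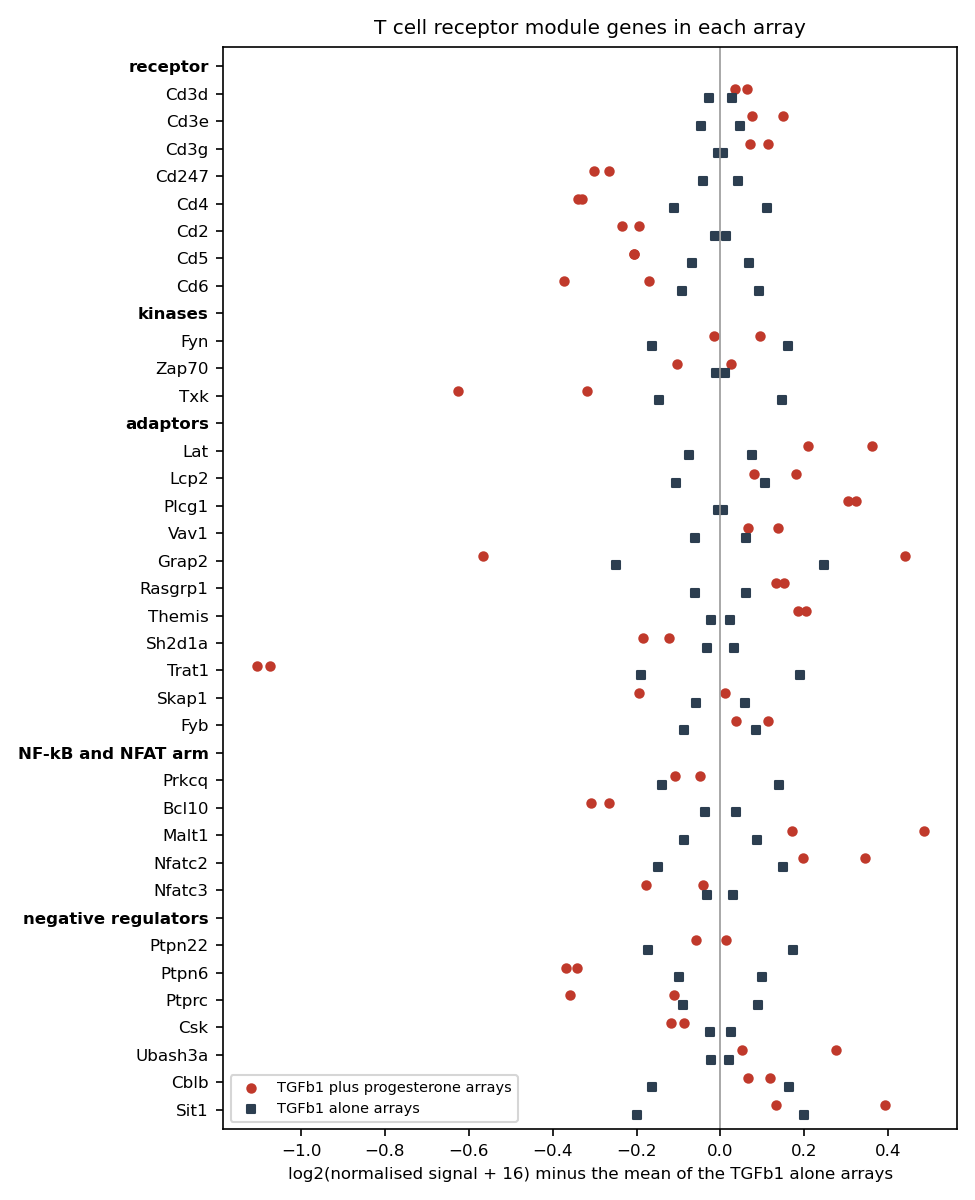
Each point is 1 array, placed by its log2(normalised signal + 16) minus the mean of the TGFb1 alone arrays, for the 34 measured genes grouped by layer, with TGFb1 plus progesterone arrays as circles and TGFb1 alone arrays as squares. Trat1 stands furthest to the left, with both progesterone arrays below both TGFb1 alone arrays, and Grap2 has the widest scatter within both groups.

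The receptor layer held 8 genes, and after quantile normalisation it split into CD3 chains that were slightly brighter with progesterone and other surface molecules that were slightly dimmer. None of the 8 passed the limma test, 5 had an unadjusted p under 0.05, all lower (beside 12.3% of all genes), and the median log2 difference was -0.21. All 8 intervals lay within 1.5-fold. Cd3d, the delta chain, had normalised signals of 6775 and 6648 with progesterone and 6370 and 6608 with TGFb1 alone, a log2 difference of 0.05 with a 95% interval of -0.10 to 0.20 (adjusted p = 0.682). Cd3e, the epsilon chain, had 3177 and 3017 with progesterone and 2769 and 2958 with TGFb1 alone, a difference of 0.11 with an interval of -0.07 to 0.30 (adjusted p = 0.430). Cd3g, the gamma chain, had 4644 and 4782 with progesterone and 4398 and 4439 with TGFb1 alone, a difference of 0.09 with an interval of -0.06 to 0.25 (adjusted p = 0.446). The arrays of the groups did not overlap for any of the 3 chains, by a narrow gap, beside 29.8% of all genes wholly higher. The side on which progesterone lay flipped with scaling, since as deposited the differences were -0.24 for Cd3d, -0.34 for Cd3e and -0.32 for Cd3g.

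Cd247, the zeta chain, went the other way from the CD3 chains in normalised signal, at 1764 and 1720 with progesterone and 2062 and 2186 with TGFb1 alone. Its log2 difference was -0.28 ± 0.08 (limma SE, n = 2 arrays each, limma adjusted p = 0.0848). Cd4, the coreceptor that binds MHC class II and carries the kinase Lck to the receptor, had 1681 and 1670 with progesterone and 1961 and 2290 with TGFb1 alone, a difference of -0.34 ± 0.10 (adjusted p = 0.0847). For both genes the groups did not overlap, and neither passed the test. Cd2, an adhesion receptor that binds Cd48 in the mouse, had 4741 and 4610 with progesterone and 5376 and 5473 with TGFb1 alone (difference -0.21 ± 0.07, adjusted p = 0.0985). Cd5, a surface glycoprotein that dampens receptor signalling, had 3582 on both progesterone arrays and 3940 and 4332 with TGFb1 alone (difference -0.21 ± 0.08, adjusted p = 0.160). Cd6, a relative of Cd5, had 1460 and 1681 with progesterone and 1777 and 2018 with TGFb1 alone (difference -0.27 ± 0.11, adjusted p = 0.176). These 5 genes lay lower on every progesterone array than on either TGFb1 array, as did 26.1% of all genes. The intervals of the differences were -0.48 to -0.09 for Cd247, -0.56 to -0.11 for Cd4 and -0.37 to -0.06 for Cd2. Those of Cd5 and Cd6 were -0.38 to -0.03 and -0.52 to -0.02. Taken singly, the unadjusted limma p ran from 0.00988 (Cd4) to 0.0367 (Cd6), but none of the 5 passed after adjustment over all genes tested.

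In the kinase layer, 3 of 4 genes were measured and 0 passed the limma test. At an unadjusted limma p under 0.05 there was 1, lower (beside 12.3% of all genes). Fyn, a Src family kinase, had normalised signals of 2124 and 2292 with progesterone and 1915 and 2402 with TGFb1 alone, a log2 difference of 0.04 with an interval of -0.23 to 0.31 (adjusted p = 0.871). Zap70, the kinase that docks on the phosphorylated receptor, had 1591 and 1455 with progesterone and 1552 and 1575 with TGFb1 alone, a difference of -0.04 with an interval of -0.25 to 0.17 (adjusted p = 0.834). The groups overlapped for both kinases, and both intervals lay within 1.5-fold. Txk, a Tec family kinase, had 525 and 420 with progesterone and 730 and 592 with TGFb1 alone. Its groups did not overlap, and its difference of -0.47 ± 0.15 had an interval of -0.82 to -0.12 (adjusted p = 0.109).

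Trat1, a transmembrane adaptor that associates with the receptor complex and is also called TRIM, was the only one of the 34 genes that fell after quantile normalisation. Its normalised signals were 414 and 404 with progesterone and 1016 and 777 with TGFb1 alone. Both progesterone arrays lay well below both TGFb1 arrays. The log2 difference was -1.09 ± 0.14 (limma SE, n = 2 arrays each, limma 95% interval -1.42 to -0.76, limma adjusted p = 0.00436), which is 0.47-fold. As deposited, the same probe set had 415 and 315 with progesterone and 1201 and 848 with TGFb1 alone. A second probe set of Trat1 had deposited signals of 294 and 214 with progesterone and 775 and 524 with TGFb1 alone, and a normalised log2 difference of -0.98 (adjusted p = 0.0147 in a fit of all probe sets). Both Trat1 probe sets therefore fell. Without progesterone replicate 2, the difference was -1.07 and the adjusted p was 0.052, and over all 17 alternatives the difference ran from -1.57 to -0.90 and the adjusted p from 3.69e-06 to 0.052.

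The promoter of Trat1 is shown as that of the gene that fell, and those of the 3 CD3 genes, which are neighbours on chromosome 9, as the promoters of the chains whose signals kept together. Each runs 5′ to 3′ on the strand of the gene, from 250 bases before to 50 bases after the transcription start in RefSeq, build GRCm38.p6, and lies at chr16:48772013-48772312 (minus strand) for Trat1, chr9:44981536-44981835 (plus strand) for Cd3d, chr9:45009562-45009861 (minus strand) for Cd3e and chr9:44980382-44980681 (minus strand) for Cd3g. Capitals mark a RUNX core (TGTGGT, or ACCACA on the other strand) in Trat1 and an E box (CAGGTG, or CACCTG on the other strand) in the CD3 genes.
Trat1: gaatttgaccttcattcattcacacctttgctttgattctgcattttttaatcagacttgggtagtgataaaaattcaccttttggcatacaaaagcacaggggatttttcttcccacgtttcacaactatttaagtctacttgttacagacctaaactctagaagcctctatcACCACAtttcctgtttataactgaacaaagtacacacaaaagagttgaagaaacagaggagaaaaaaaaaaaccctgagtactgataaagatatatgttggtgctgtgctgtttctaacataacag
Cd3d: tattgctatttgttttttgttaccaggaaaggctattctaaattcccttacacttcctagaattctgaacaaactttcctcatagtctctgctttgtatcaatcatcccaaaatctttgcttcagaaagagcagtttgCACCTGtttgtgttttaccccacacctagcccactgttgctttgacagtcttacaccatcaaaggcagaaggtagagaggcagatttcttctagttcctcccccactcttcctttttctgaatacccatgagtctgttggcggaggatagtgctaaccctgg
Cd3e: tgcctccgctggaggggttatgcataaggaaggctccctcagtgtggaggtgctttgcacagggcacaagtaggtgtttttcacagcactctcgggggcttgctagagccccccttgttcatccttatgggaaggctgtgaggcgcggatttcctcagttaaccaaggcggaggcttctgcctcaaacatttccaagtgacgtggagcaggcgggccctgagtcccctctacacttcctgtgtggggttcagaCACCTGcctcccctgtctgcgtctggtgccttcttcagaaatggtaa
Cd3g: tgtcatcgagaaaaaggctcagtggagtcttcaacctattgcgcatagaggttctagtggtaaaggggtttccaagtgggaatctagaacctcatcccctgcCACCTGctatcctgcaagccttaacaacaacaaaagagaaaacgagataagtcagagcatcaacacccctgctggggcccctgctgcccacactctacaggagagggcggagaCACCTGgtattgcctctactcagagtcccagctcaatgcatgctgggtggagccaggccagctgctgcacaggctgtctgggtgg
RUNX factors and E box binding proteins are regulators of T cell genes, and steroid receptors bind sites built from a core hexamer (AGAACA, or TGTTCT on the other strand). The Trat1 window held 1 RUNX core, which begins at -76 from the start, and no E box. The Cd3g window held 2 E boxes, and those of Cd3d and Cd3e held 1 each, with no RUNX core. None of the 4 windows held the steroid receptor hexamer. Of 32851 RefSeq promoter windows of the same length, 16.8% held the RUNX core, 20.2% the E box and 19.0% the steroid receptor hexamer, so single matches of these motifs are common. Among the 29 listed genes with a window in the table, 6 held the RUNX core, 14 the E box and 8 the steroid receptor hexamer. These counts are of genes with a match in any of their windows, whereas the shares above are of windows. No match in these 4 windows overlapped another, and a match is a description of sequence only.

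The other adaptors and effectors did not pass the limma test. Over the 11 genes of the layer the median log2 difference was 0.10, 1 gene fell (beside 5.25% of all genes) and 0 rose (beside 3.05%). At an unadjusted limma p under 0.05 there were 2 higher (beside 11.7% of all genes) and 1 lower (beside 12.3%). Lat, the scaffold phosphorylated by ZAP-70, had normalised signals of 3011 and 3347 with progesterone and 2470 and 2743 with TGFb1 alone, and Plcg1, the phospholipase that splits membrane lipid into calcium and protein kinase C signals, had 1830 and 1854 with progesterone and 1471 and 1484 with TGFb1 alone. Both genes lay above TGFb1 alone on every progesterone array, as did 29.8% of all genes. Neither passed the threshold in limma, with differences of 0.28 ± 0.09 for Lat (adjusted p = 0.109) and 0.31 ± 0.08 for Plcg1 (adjusted p = 0.0602). As deposited the differences turned to -0.15 for Lat and -0.12 for Plcg1. Lcp2, the adaptor that LAT complexes recruit, had a difference of 0.13 (interval -0.11 to 0.37), and Rasgrp1, which activates Ras, had 0.14 (interval -0.06 to 0.35). Vav1, an exchange factor for Rac, had 0.10 (interval -0.16 to 0.36), and Themis, which tunes receptor signalling in thymocytes, had 0.19 (interval -0.06 to 0.45). Sh2d1a, the X-linked adaptor of SLAM family receptors, had -0.15 (interval -0.40 to 0.09). Skap1 and Fyb, which link the receptor to integrin activation, had -0.09 (interval -0.33 to 0.14) and 0.07 (interval -0.12 to 0.27). Grap2, which bridges LAT and Lcp2, was dim and poorly measured, at 113 and 48.0 with progesterone and 96.7 and 63.9 with TGFb1 alone, with an interval of -0.85 to 0.73.

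**Figure D2:**
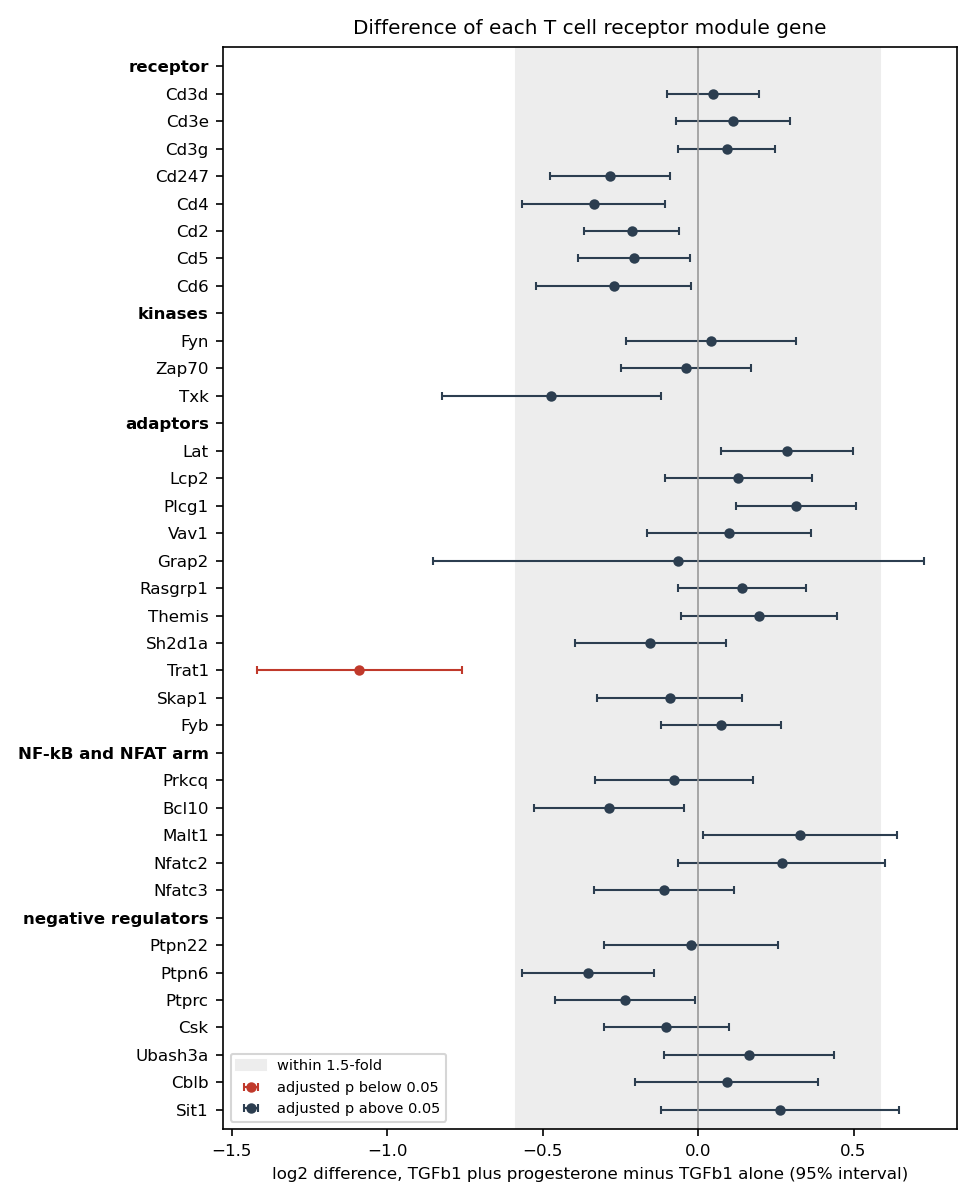
Log2 difference of normalised signal, TGFb1 plus progesterone minus TGFb1 alone, for the 34 measured genes grouped by layer, with bars for the 95% interval and a shaded band for a difference within 1.5-fold. Trat1, at -1.09, is the single gene past the threshold, and 28 of 34 intervals lie inside the band.

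None of the 5 genes of the arm to NF-kB and NFAT passed the limma test. At an unadjusted limma p under 0.05 there were 1 higher (beside 11.7% of all genes) and 1 lower (beside 12.3%). Malt1, the protease of the Bcl10-Malt1 complex, had normalised signals of 960 and 769 with progesterone and 640 and 725 with TGFb1 alone, with non-overlapping groups and a log2 difference of 0.33 ± 0.13 (adjusted p = 0.191). Its 3 probe sets ran from 0.33 to 0.60, and as deposited the difference was -0.05. Bcl10, its partner, had 586 and 568 with progesterone and 689 and 726 with TGFb1 alone, a difference of -0.29 ± 0.10 (adjusted p = 0.147), with 4 probe sets from -0.29 to -0.04. The partners thus lay on opposite sides after quantile normalisation, neither past the threshold. Prkcq, protein kinase C theta, had a difference of -0.08 (interval -0.33 to 0.18) with overlapping groups. The calcium-driven factors Nfatc2 and Nfatc3 had 0.27 (interval -0.06 to 0.60) and -0.11 (interval -0.33 to 0.12), and as deposited the Nfatc2 difference was -0.04.

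Of the 7 genes listed as negative regulators, 0 passed the limma test. At an unadjusted p under 0.05 there were 2, Ptpn6 and Ptprc, both lower (beside 12.3% of all genes). Ptpn6, a phosphatase that opposes the proximal kinases, came nearest to the threshold, at normalised signals of 2145 and 2184 with progesterone and 2589 and 2970 with TGFb1 alone, a log2 difference of -0.36 ± 0.09 (adjusted p = 0.0567). Its groups did not overlap, but a second probe set of the gene had a difference of 0.16. Ptprc, the phosphatase CD45 that primes the Src family kinases, had 9598 and 8080 with progesterone and 9742 and 11032 with TGFb1 alone (difference -0.24 ± 0.10, adjusted p = 0.193). Csk, which holds those kinases inactive, and Ptpn22, its partner phosphatase, had differences of -0.10 (interval -0.30 to 0.10) and -0.02 (interval -0.30 to 0.26). Cblb, a ubiquitin ligase that raises the threshold for activation, had 0.09 (interval -0.20 to 0.39). Ubash3a, which dampens receptor signalling, had 0.16 (interval -0.11 to 0.44), and Sit1, an inhibitory transmembrane adaptor, had 0.26 (interval -0.12 to 0.64).

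Of the 34 genes, 20 had at least 2 probe sets above the level filter, and for 6 of the 20 the probe sets differed in sign. Their log2 differences ran from -0.32 to 0.61 for Cblb, from -0.36 to 0.16 for Ptpn6, from -0.05 to 0.27 for Rasgrp1, from -0.42 to 0.06 for Skap1, from -0.14 to 0.10 for Vav1 and from -0.04 to 0.04 for Zap70. For the other 14 genes the probe sets kept 1 sign. Cd247 ran from -0.37 to -0.18 over 3 probe sets, and Cd4 from -0.38 to -0.34 over 2.

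**Figure D3:**
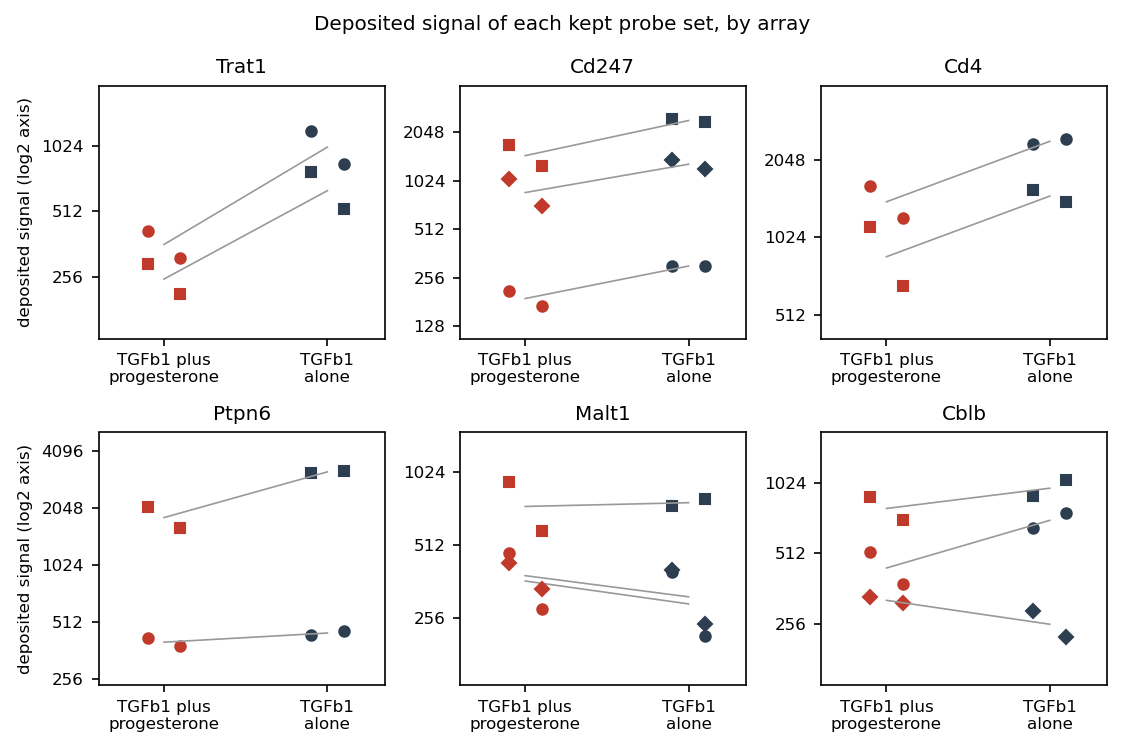
Deposited signal (log2 axis) of each probe set above the level filter for 6 genes, with the TGFb1 plus progesterone arrays left of the TGFb1 alone arrays, 1 marker shape per probe set and a line joining the geometric means of the groups. Both Trat1 probe sets were lower on each progesterone array than on either TGFb1 array, as were both of Ptpn6 in these deposited signals, though after quantile normalisation the Ptpn6 log2 differences were -0.36 and 0.16.

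How far the machinery stood from TGFb1 alone depended on how the arrays were scaled. The trimmed means of the arrays were 139 and 108 with progesterone and 155 and 146 with TGFb1 alone. Against a median log2 difference of all genes of -0.22 as deposited, the median of the 34 genes was -0.42, or -0.20 relative to all genes, and all 34 lay below 0. Scaled to a common trimmed mean, the median was -0.12 beside 0.05 for all genes, or -0.18 relative to them, and 23 of 34 lay below 0. After quantile normalisation the median relative to all genes was -0.05, and 18 of 34 lay below 0. As deposited, 4 of the 34 genes fell in the limma test (Trat1 by 1.44, Txk by 0.81, Ptpn6 by 0.80 and Cd4 by 0.77 on the log2 scale), beside 7.58% of all genes. In that fit the variance model gave no weight to the spread of each single gene. Its limma adjusted p-values, with Trat1 at 3.69e-06, therefore rest on the trend over all genes. At a common trimmed mean 5 fell (Trat1 by 1.15, Ptpn6 by 0.50, Cd4 by 0.48, Cd247 by 0.42 and Cd6 by 0.41), beside 5.48% of all genes. With each array centred on its median over all probe sets 24 of the 34 fell, beside 34.7% of all genes. The median of the 34 genes was then -0.54 beside -0.34 for all genes. The value relative to all genes, -0.20, equals that as deposited by construction, since centring subtracts 1 value per array. Trat1 fell under each of these scalings.

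**Figure D4:**
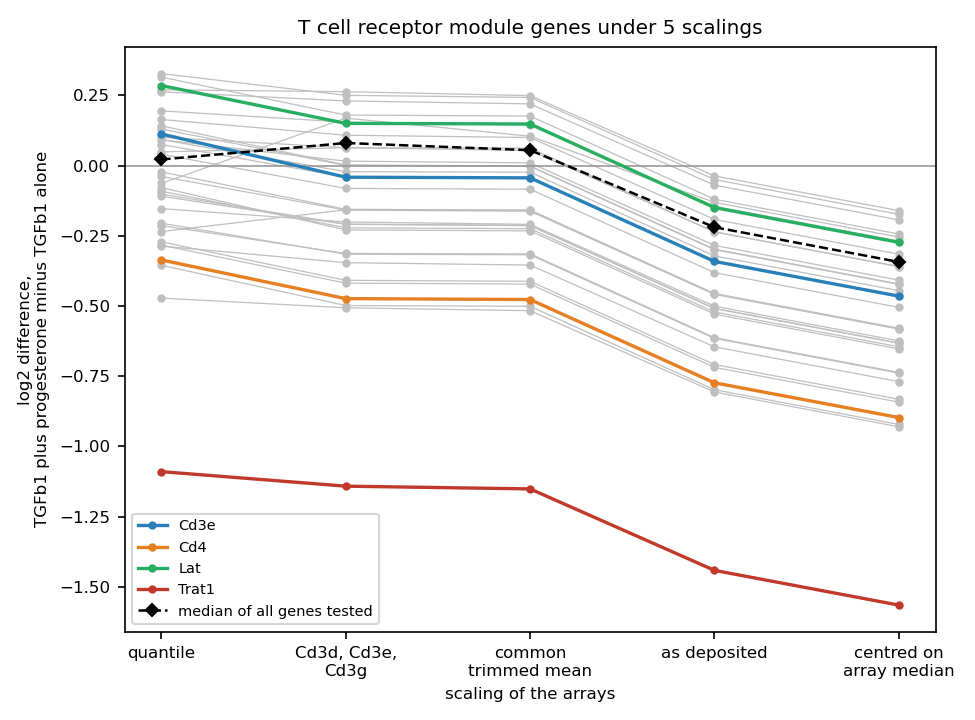
Log2 difference, TGFb1 plus progesterone minus TGFb1 alone, of each of the 34 genes (lines) under 5 scalings of the arrays, with 4 genes in colour and the median of all genes tested as a dashed line. Trat1 lies lowest under each scaling, while Lat and Cd3e lie above 0 after quantile normalisation and below 0 as deposited.

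To set the other genes against the CD3 chains within each array, the mean log2 signal of Cd3d, Cd3e and Cd3g was subtracted, a scaling chosen after seeing the data. Such a ratio shows unequal change and not which of the genes moved. Of the 31 other measured genes, 5 fell relative to the CD3 chains in limma, beside 5.29% of all genes, and 0 rose, beside 3.66% of all genes, with 9 lower (beside 11.3% of all genes) and 0 higher (beside 15.6%) at an unadjusted p under 0.05. The 5 were Trat1 (by 1.14, adjusted p = 0.00202), the phosphatase Ptpn6 (by 0.50, adjusted p = 0.0139), the coreceptor Cd4 (by 0.47, adjusted p = 0.0235), the zeta chain Cd247 (by 0.42, adjusted p = 0.0258) and Cd6 (by 0.41, adjusted p = 0.0437), all on the log2 scale. The ratios of the groups did not overlap for 16 genes lower with progesterone (beside 22.9% of all genes) and 4 higher (beside 36.7%), and overlapped for 11.

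Of 92 further genes of the T cell receptor pathway, 76 were tested, 4 fell in limma (5.26%, beside 5.25% of all genes) and 0 rose (beside 3.05%). At an unadjusted p under 0.05, 10 lay lower (13.2%, beside 12.3%) and 8 higher (10.5%, beside 11.7%), and the median log2 difference was 0.02, as for all genes. These shares are near those of all genes. Slamf6, a receptor of the SLAM family, had normalised signals of 238 and 212 with progesterone and 361 and 398 with TGFb1 alone, a difference of -0.72 ± 0.13 (adjusted p = 0.0163). Vav3, a relative of Vav1, had 277 and 305 with progesterone and 415 and 507 with TGFb1 alone, a difference of -0.63 ± 0.14 (adjusted p = 0.0331). Cd48, the ligand of Cd2 in the mouse, had 1249 and 1203 with progesterone and 1780 and 1654 with TGFb1 alone, a difference of -0.48 ± 0.09 (adjusted p = 0.0173). Sla, an adaptor that promotes turnover of the receptor, had 2176 and 2097 with progesterone and 2850 and 2704 with TGFb1 alone, a difference of -0.38 ± 0.08 (adjusted p = 0.0285). For each of the 4 genes every progesterone array lay below both TGFb1 arrays, beside 26.1% of all genes. The 4 were named for passing the test on these same arrays, so this adds no support. The other kept probe set of Slamf6 had a difference of -0.10, those of Sla ran from -0.41 to 0.60, and those of Vav3 from -0.63 to -0.47. With the probe sets of each gene averaged, Sla had a difference of -0.069 (adjusted p = 0.78) and Slamf6 -0.41 (adjusted p = 0.135), and neither passed. With no level filter, Sla (adjusted p = 0.0738) and Vav3 (adjusted p = 0.0717) did not pass. None of the 4 passed when either progesterone array was left out, where 0 of the 76 genes fell. Without TGFb1 replicate 1, 9 of the 76 fell, and without TGFb1 replicate 2, 3 fell and 4 rose, with Vav3 at -0.49 (adjusted p = 0.0668) no longer past the threshold. Without the intensity trend in the variance model, 0 of the 76 passed.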

How the data were processed

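Total RNA was hybridised to 4 arrays of 45101 probe sets, 2 per group. The authors deposited linear signal intensity per probe set. The tool was MAS5, per the submitters' processing notes, and its version and scaling are not given in the sources used here. Groups came from the sample labels, which name no separate cultures or animals, so p-values cover only the spread between these arrays, which may be technical. Arrays were to be quantile normalised if their trimmed means (2% off each end) differed by over 5%, and the highest was 1.43 times the lowest. Values were used as log2(signal + 16), which understates folds of dim genes. After removal of 64 controls, probe sets above the median level were kept (22518).

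Names came from the platform annotation, updated through Entrez identifiers in a RefSeq gene table of GRCm38.p6 (34741 matched). Of the 45037 probe sets that are not controls, 34945 had 1 gene, 932 several and 9160 none. For a gene with several such probe sets, the one with the highest mean over the arrays was used. The groups were compared in limma 3.58.1 under R 4.3.3 (lmFit, eBayes with intensity trend), adjusted by Benjamini-Hochberg over 10512 genes at 0.05, with 2 residual degrees of freedom. The fit added 5.56 prior degrees of freedom drawn from all genes. Every SE and 95% interval rests on this pooled variance, and not on the spread of a gene's own arrays alone. Data were simulated for all 10512 genes with independent noise from the variance model fitted to these arrays. The shares found therefore hold only under that model and do not cover differences that move with the groups. On these simulated data the fit found 16.6% of 1.5-fold, 61.9% of 2-fold and 94.8% of 4-fold changes, and 3.6% of its calls were false. A gene that did not pass may thus still have changed. The number of arrays limits the precision. Alternatives varied scaling, pseudocount, level filter, variance model, probe set choice, the replicate block and each array left out. The listed genes, the further pathway genes and the markers were chosen with earlier results of these data known. All listed genes are accounted for, with each array's value for those that passed and for receptor and kinase genes, and of further pathway genes those that passed are named.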

Additional observations from a re-analysis of the deposited data

How the results depend on the processing

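Trat1 kept its direction in all 17 alternatives and its call in 16. Changes of pseudocount and a robust variance model moved no call among the genes named. Centred on array medians, 24 of the 34 genes, 40 further pathway genes and 3649 of all genes fell and 156 of all rose. The median of the 34 was then -0.54, with Cd3d -0.36, Cd3e -0.46, Cd3g -0.45, Fyn -0.50, Lat -0.27, Lcp2 -0.42, Plcg1 -0.24, Vav1 -0.36, Rasgrp1 -0.42, Themis -0.27, Fyb -0.46, Malt1 -0.17, Nfatc2 -0.16, Ubash3a -0.32, Cblb -0.41 and Sit1 -0.19. As deposited, 4 of the 34 fell and 148 of all genes rose. The median was -0.42, with Cd3d -0.24, Cd3e -0.34, Cd3g -0.32, Fyn -0.38, Lat -0.15, Lcp2 -0.30, Plcg1 -0.12, Vav1 -0.24, Rasgrp1 -0.30, Themis -0.15, Fyb -0.34, Malt1 -0.0497, Nfatc2 -0.037, Ubash3a -0.19, Cblb -0.28 and Sit1 -0.070. At a common trimmed mean, 5 of the 34 fell, the median was -0.12, and reversals were Cd3e -0.044, Cd3g -0.023, Fyn -0.084, Lcp2 -0.0029, Grap2 0.10, Rasgrp1 -0.0015 and Fyb -0.043. Scaled to the CD3 chains, chosen after seeing the data, 5 fell, the median was -0.12, and reversals were Fyn -0.081, Grap2 0.17 and Fyb -0.041. The cause was not tested. With probe sets averaged per gene, 2 further pathway genes fell and Vav1 was -0.018. Without intensity trend, 0 further pathway genes, 326 of all genes lower and 128 higher passed, and with no level filter, where more genes were tested, 2, 321 and 166. The replicate numbers pair nothing in the labels, and deviations of arrays with the same number correlated at 0.20. With the number as a block, 7 of the 34 genes fell (Cd2, Ptpn6, Cd247, Cd4, Cd6, Trat1 and Txk) and 2 rose (Lat and Plcg1), 8 further pathway genes fell and 6 rose, and 1004 of all genes fell and 892 rose. Leaving out 1 array at a time, 0 to 3 of the 34 fell and 0 to 1 rose, with a median from -0.096 to 0.050, 0 to 9 further pathway genes fell and 0 to 4 rose, and 197 to 657 of all genes fell and 45 to 575 rose. Without TGFb1 replicate 1, Ptpn6, Cd4 and Trat1 passed, without TGFb1 replicate 2 Lat, Trat1 and Txk, without progesterone replicate 1 Trat1, and without progesterone replicate 2 none. Sign changes over these fits were -0.071 to 0.26 for Cblb, -0.011 to 0.16 for Fyb, -0.12 to 0.20 for Fyn, -0.57 to 0.44 for Grap2, -0.22 to 0.062 for Prkcq, -0.20 to 0.15 for Ptpn22, -0.19 to 0.012 for Skap1 and -0.10 to 0.025 for Zap70. The signal of Grap2, near the level filter, was too uneven to bound its difference below 1.5-fold.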
